A study of Rattus norvegicus with 8 samples.

Results

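The transcripts described here are 4187 long noncoding RNAs (lncRNAs) of the rat that were measured in liver on 2 diets. They are the entries of a table of 31243 lncRNA transcripts that carry an identifier of NONCODE, a database of noncoding RNAs, that share no base with the locus of any gene in the gene table of the same series, and whose locus is under 50 bases longer than the transcript. The last condition means that no intron of ordinary size fits into them, so they are called intergenic and unspliced. They make up 13.4% of the table. The other NONCODE transcripts are 2436 intergenic spliced ones, 5781 unspliced ones that overlap a gene and 16666 spliced ones that overlap a gene. Another 2173 transcripts carry TCONS identifiers in place of a NONCODE number.

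The RNA came from livers of wild type Sprague-Dawley rats, an outbred laboratory strain. Rats of the ND group ate regular chow, in which fat gave 8.5% of the calories, carbohydrate 59.6% and protein 20.3%. Rats of the HFD group ate a high fat diet for 24 weeks, in which fat gave 41% of the calories, carbohydrate 43% and protein 17%. The labels give the age of both groups as about 22 weeks, which is shorter than the feeding time, and the difference could not be settled. There were 12 rats in each diet group, and the libraries analysed are ND-1 to ND-3 and HFD-1 to HFD-5. The comparison asks which transcripts differ between the diets.

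A lncRNA is an RNA without a recognised protein-coding frame. Some act in the nucleus on chromatin or on RNA processing, and most have no assigned function. Intergenic lncRNAs lie between genes, and an unspliced one beside a gene may be a transcript of its own or a piece of a longer RNA of that gene that runs past its annotated end. Expression values alone cannot tell these apart, nor can they tell on which strand a transcript was made when the use of strand in counting is not given, as here.

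Gene counts ran from 12678616 to 36152937 per library and left a gap between 18401981 and 30501673. The libraries above the gap are called deep here (on chow ND-1 and ND-3, on the high fat diet the first and second HFD library) and those below it shallow (on chow ND-2, on the high fat diet HFD-3 to HFD-5). Both sets hold rats of both diets, but ND-2 is the only chow library of the shallow set. The liver label was checked on marker genes: 10 of 10 hepatocyte markers were found, and their summed level was 68029 to 72821 FPKM (fragments per kilobase, scaled to the library's total) in the ND and 73743 to 76211 FPKM in the HFD libraries, ranges that do not overlap. Kupffer cell markers (8 of 8 found) summed to 186 to 250 and 147 to 423 FPKM, endothelial markers (5 of 6) to 52.7 to 60.7 and 59.4 to 68.2, and stellate cell markers (6 of 6) to 62.9 to 112 and 46.8 to 86.3. Cholangiocyte markers (5 of 5) summed to 5.65 to 9.95 and 4.46 to 8.06 FPKM, and erythroid markers (3 of 4) to 234 to 723 and 359 to 696, with none of the markers found at 0 in every library. The part of cell composition in the lncRNA values was not tested, and in bulk tissue fewer cells of a type and less RNA per cell cannot be told apart.

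Most of these lncRNAs are short and lie close to a gene. Of the 4187, 4145 have a locus exactly as long as the transcript and 42 have 1 to 49 extra bases. Their lengths run from 201 to 5971 bases with a median of 647 (quartiles 472 and 988). On the build Rnor_6.0 they are spread over the numbered chromosomes and X, from 431 on chromosome 1 to 73 on chromosome 20, with 9 on unplaced or unlocalised scaffolds and 0 on Y. The median distance to the nearest gene was 4502.5 bases and the longest 1231669 bases. They fill 3401 of the intervals between genes, and 639 intervals hold 2 or more of them, 1422 in all. The members are therefore not independent of each other. A further 44 share their locus with another lncRNA of the table, so that fragments common to both had to be divided between them.

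The table lists 1514 of them (36.2%) at 0 FPKM in all 8 libraries, while 1446 were above 0 in every library. At 0.5 FPKM or more, 1917, 1860 and 1938 of them were detected in ND-1 to ND-3 and 1927, 1923, 1760, 1846 and 1869 in HFD-1 to HFD-5. Every shallow library was below every deep one, and the diets overlapped. At 1 FPKM or more that order did not hold: ND-2 (1772) and HFD-5 (1750) were above the 4 deep libraries (1709 to 1738). The share detected in a library at 0.5 FPKM or more was 42.0% to 46.3% of the 4187. It was 25.7% to 29.7% of the intergenic spliced transcripts and 61.7% to 65.5% of the unspliced ones that overlap a gene. An FPKM of 0 here can mean too few fragments: 29 of the lncRNAs had a median of at least 5 FPKM and yet 0 in some library, with 26 of those zeros in shallow libraries and 10 in deep ones. The part of depth in these differences between libraries was not tested.

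A transcript entered the diet comparison when it had at least 0.5 FPKM in at least 3 libraries. That held for 2015 of the 4187 (48.1%), and 2172 were not tested. The share was 31.4% for intergenic spliced transcripts, 69.0% for gene-overlapping unspliced ones and 65.8% for gene-overlapping spliced ones. Tested members had a median level of 6.64 FPKM (quartiles 1.98 and 24.2), against 3.99 FPKM for intergenic spliced, 8.77 for gene-overlapping unspliced and 15.7 for gene-overlapping spliced transcripts. Their levels were steeply graded: 849 had a mean of at least 10 FPKM, 117 of at least 100 and 8 of at least 1000. Together all 4187 held 10.7% to 12.3% of the lncRNA fragments of a library, and the 10 highest members of each library held 39.7% to 47.9% of that.

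Nearness to an expressed gene went with expression. Of the members 1 to 1000 bases from a gene, 634 of 930 were tested (68.2%), and of those 1001 to 5000 bases away, 809 of 1260 (64.2%). From 5001 to 50000 bases the share was 34.2% (459 of 1342), and beyond that 17.3% (113 of 652). The tested members had median levels of 9.56, 9.54, 3.74 and 2.77 FPKM in these 4 groups. Within the nearest 1000 bases, 89.1% were tested when the gene had a mean of at least 1 FPKM and 38.9% when it had less. Beyond 50000 bases these shares were 25.4% and 15.3%. The groups also differ in transcript length, with medians of 804.5, 765.5, 572 and 527 bases, and the part of length was not tested.

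The counts also differed by the side of the gene. Sides could be assigned where a reference annotation gave the strand and the RefSeq gene table of assembly GRCr8 kept the order of the neighbouring genes. A fully reversed order was accepted too, with the strand turned. Within 5000 bases, 1040 members lay on the 3′ side of the gene, past its annotated end, and 270 on the 5′ side. On the 3′ side 802 were tested (77.1%) with a median of 12.1 FPKM, and on the 5′ side 130 (48.1%) with a median of 3.65 FPKM. From 5001 to 50000 bases the numbers were 279 and 271, and beyond that 77 and 92.

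**Figure D1:**
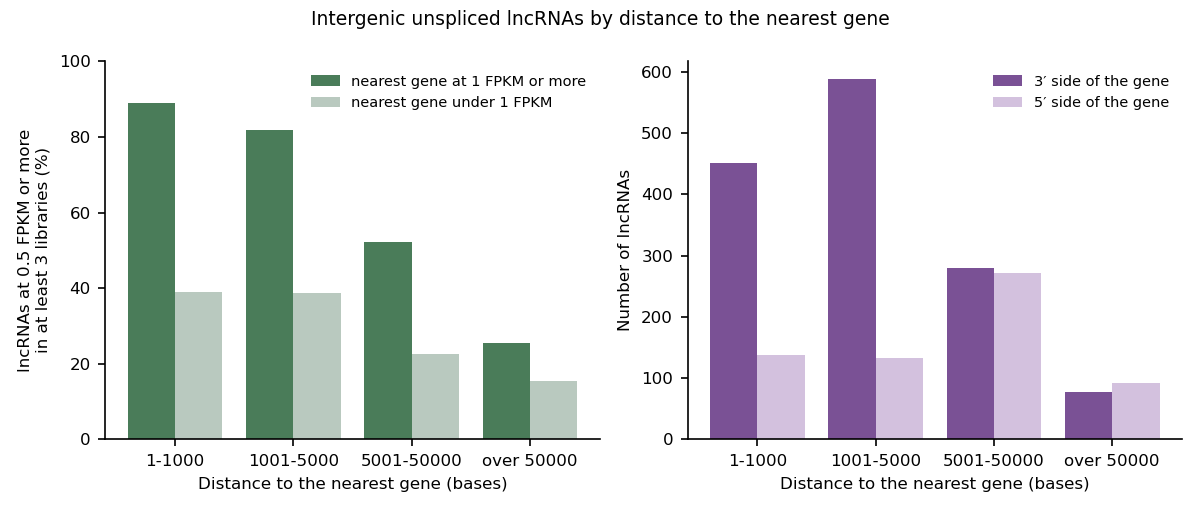
The left panel shows the share of lncRNAs (%) with at least 0.5 FPKM in at least 3 libraries, by distance to the nearest gene in bases, for genes of at least 1 FPKM (dark) and below it (light), and the right panel the number of lncRNAs on the 3′ (dark) and 5′ (light) side of that gene. The dark bars of the left panel go from 89.1% in the nearest group to 25.4% in the farthest, and the 3′ side holds 1040 of the lncRNAs within 5000 bases against 270 on the 5′ side, with near equal numbers from 5001 to 50000 bases.

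Levels of a member and of its nearest gene were more alike in rank at short range. Across members with a detected gene nearby, the Spearman correlation of the mean level was 0.34 for 1 to 1000 bases (n = 533) and 0.34 for 1001 to 5000 (n = 685), against 0.067 for 5001 to 50000 (n = 303) and 0.21 beyond (n = 43). The correlation of the log2 difference between the diets was 0.41, 0.40, 0.12 and 0.29 over the same members. These are descriptions across transcripts of the same 8 libraries, which share their rats and their depth, and neighbouring members share a gene. The lncRNA FPKM stand at 6.85 to 9.22 times a scale set by the gene count total of the library. They also give a fragment of a short transcript more weight. For the next comparison the fragments of a member were divided by transcript length and by that total, and set against the gene FPKM. Whether the gene FPKM are scaled to the same total was not checked. Measured in this way, 120 of 1091 tested members within 5000 bases of a gene of at least 1 FPKM (11%) were above the gene. The median member stood at 0.329 of its gene.

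The highest member by FPKM was NONRATT008185.2, 349 bases on chromosome 13 (47591745 to 47592093), 46 bases past the 3′ end of Pigr. Pigr encodes the polymeric immunoglobulin receptor, which carries IgA into bile. The lncRNA was at 18967, 9236 and 18208 FPKM in ND-1, ND-2 and ND-3 and at 17795, 16195, 12406, 10949 and 12917 FPKM in HFD-1 to HFD-5. The 4 deep libraries were all above the 4 shallow ones, while the diets overlapped. Pigr itself was at 675 to 922 FPKM, and its deep and shallow libraries overlapped. With its fragments divided by length and gene count total the lncRNA stood at 804, and the mean FPKM of Pigr was 792. For transcripts of 301 to 500 bases a fragment is worth 1.80 to 1.85 times as much FPKM per length in the deep libraries and 1.72 to 1.74 times in the shallow ones, relative to transcripts of at least 3000 bases, and its part in the gap was not tested.

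Beside Frmd8, which encodes a partner of the iRhom proteins, lie 4 members, and 3 of them had high levels. NONRATT003473.2 (3290 bases, chromosome 1, 221200983 to 221204272, 9036 bases past the 3′ end of Frmd8) was at 732, 994 and 1670.4 FPKM on chow and at 1077, 1443, 2266, 2072 and 2173 on the high fat diet. The 3 shallow HFD libraries were the highest and ND-1 the lowest. Its log2 difference was 0.70 ± 0.31 (SE; limma, unadjusted p = 0.049, adjusted p = 0.953), with 0.17 in the deep and 1.13 in the shallow set. It was 0.43 without ND-1 and 1.03 without ND-3. The next 2 were named after their values were seen. NONRATT003472.2 (781 bases) was at 293, 692 and 976 FPKM on chow and 288, 515, 829, 997 and 1129 on the high fat diet. NONRATT003471.2 (709 bases) was at 201, 443 and 625 FPKM and at 227, 359, 578, 650.2 and 693 FPKM. ND-1 was the lowest or second lowest library of all 3, and the 3 shallow HFD libraries exceeded the 2 deep ones in each. The fourth, NONRATT001456.2, also named after its values were seen, was low at 4.02, 4.72 and 14.8 FPKM on chow and at 1.14, 5.27, 6.17, 3.33 and 6.21 on the high fat diet, and its log2 difference was -0.70 ± 0.60 (SE; limma, adjusted p = 0.982). Frmd8 itself was at 1.35 to 2.48 FPKM.

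Of the other members with the highest levels, 3 lay close to an expressed gene and shared their lowest library with it. The highest library was shared as well, except beside Edem1. NONRATT012014.2 (2318 bases, chromosome 16, 54455038 to 54457355) lies 2712 bases from Slc7a2, which encodes a transporter of cationic amino acids. It was at 2670.1, 1156 and 1446 FPKM on chow and at 772, 875, 1339, 1895 and 2348 on the high fat diet. Slc7a2 was at 339, 185 and 188 FPKM on chow and at 113, 126, 208, 306 and 335 on the high fat diet. Both were highest in ND-1 and HFD-5 and lowest in HFD-1 and HFD-2, and the diets overlapped. The lncRNA had a log2 difference of -0.32 ± 0.40 (SE; limma, adjusted p = 0.988), with -1.26 in the deep and 0.65 in the shallow set.

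NONRATT020851.2 (2762 bases, chromosome 4, 140915893 to 140918654) begins 114 bases past the 3′ end of Edem1, whose product sends misfolded glycoproteins of the endoplasmic reticulum to degradation. It was at 2409, 908 and 1856 FPKM on chow and at 938, 1079, 586, 1371 and 2106 on the high fat diet. Edem1 was at 294, 148 and 231 FPKM and at 127, 143, 98.2, 219 and 312 FPKM. HFD-3 was the lowest library for both. ND-1 and HFD-5 were the top libraries of both, with ND-1 first for the lncRNA and HFD-5 first for Edem1. NONRATT025755.2 (257 bases, chromosome 7, 37812516 to 37812772) lies 59 bases on the 5′ side of Btg1, which encodes an antiproliferative protein. It was at 1076, 749 and 1371 FPKM on chow and 574, 871, 902, 815 and 1117 on the high fat diet, highest in ND-3 and lowest in HFD-1, as was Btg1 (180 and 71.1 FPKM in those libraries).

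Another 2 of the highest members lay 13024 and 71224 bases from their nearest gene. NONRATT022566.2 (488 bases, chromosome 5, 138042653 to 138043140) is 13024 bases from a gene annotated as SNORA17, a class of small nucleolar RNA, which was listed at 0 in all libraries. The lncRNA was at 1483, 2083 and 1644 FPKM on chow and 1571, 1504, 1577, 1559 and 1754 on the high fat diet, a narrow range except for ND-2. NONRATT006699.2 (1234 bases, chromosome 11, 81515845 to 81517078) lies 71224 bases from Kng1l1, a kininogen gene. It was at 726, 157 and 1887 FPKM on chow and at 1068, 1233, 1504, 642 and 183 on the high fat diet. Its spread between libraries of the same diet, 1.44 on the log2 scale, was the widest of the 7 highest members described here. Kng1l1 stayed between 135 and 279 FPKM. ND-3 was the highest library of both, while the lowest was ND-2 for the lncRNA and HFD-5 for Kng1l1.

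**Figure D2:**
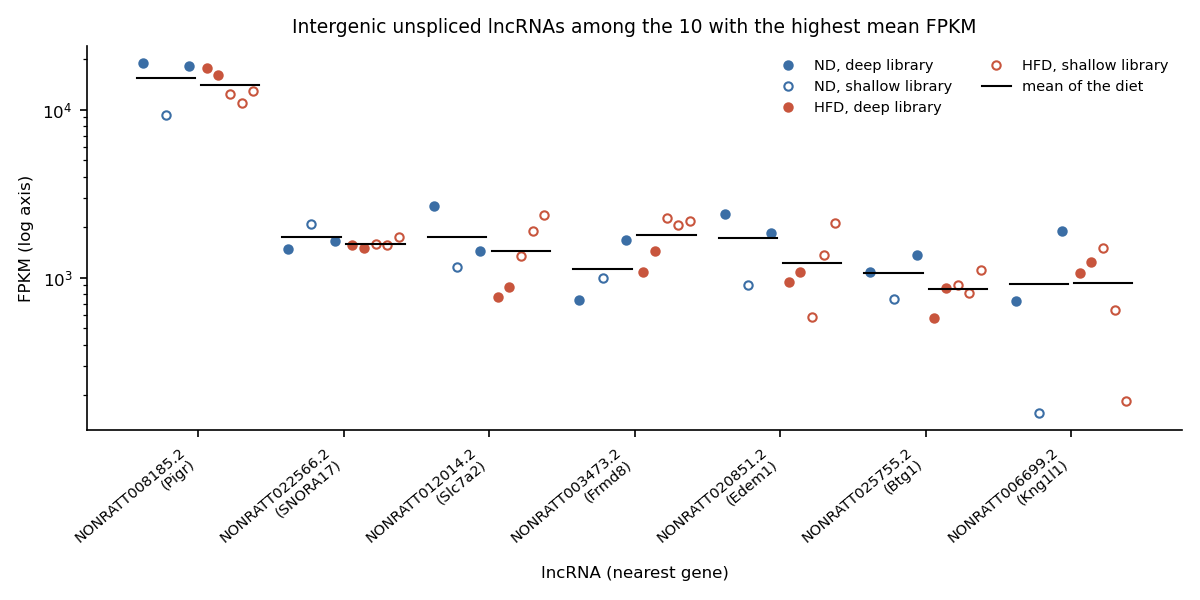
FPKM (log axis) in each library of 7 of the 10 intergenic unspliced lncRNAs with the highest mean, with the nearest gene in brackets, filled points for deep and open points for shallow libraries, and black lines for the mean of each diet. The diets overlap in all 7, the deep libraries are above the shallow ones for the lncRNA beside Pigr, and the one near Kng1l1 spans 157 to 1887 FPKM.

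No member differed between the diets past the threshold. By limma on log2(FPKM + 0.5), 0 of 2015 passed an adjusted p of 0.05, with 0.0101% of all 19799 tested lncRNAs (2 transcripts) passing. The smallest adjusted p of a member was 0.269. At an unadjusted p under 0.05 there were 94 members (4.67%), 49 higher and 45 lower on the high fat diet, and the share over all lncRNAs was 5.21% (2.63% higher and 2.58% lower). edgeR's quasi-likelihood test on the estimated fragments passed 0 of 1136 members (0.0163% of all lncRNAs) and gave 63 at an unadjusted p under 0.05 (5.55%, with 5.27% of all). The count of members is near the background in each of these.

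In 89 members (4.42%) the range of the ND libraries and that of the HFD libraries did not overlap, with 3.82% over all tested lncRNAs. Of these, 33 were higher on the high fat diet (1.64%, background 1.68%) and 56 lower (2.78%, background 2.14%). The fitted value was higher on the high fat diet in 868 members (43.1%), against 47.6% of all lncRNAs, and the median log2 difference was -0.08 for the members and -0.02 for all. A difference of at least 1 in size on the log2 scale was seen in 174 members (8.64%), against 10.6% of all. These shares describe the members and carry no test of their own.

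The spread between libraries of the same diet fell with level, and with it the size of difference that could be seen. This spread holds both the counting of fragments and variation between rats, which were not separated. Its median on the log2 scale was 0.91 below 2 FPKM (505 members), 0.65 from 2 to 10 FPKM (661), 0.33 from 10 to 100 FPKM (732) and 0.30 at 100 FPKM or more (117). The median number of fragments per library was 1, 7, 71.3 and 718 in these groups, and 21, 36, 25 and 12 members had an unadjusted p under 0.05. These are 4.16%, 5.45%, 3.42% and 10.3% of the members in each group, against 4.83%, 5.32%, 4.70% and 7.42% of all tested lncRNAs of the same levels. The depth sets also separated members: all 4 deep libraries were above all 4 shallow ones in 152 members (7.54%, with 6.18% of all lncRNAs), and the reverse held in 37 (1.84%, with 4.19%).

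**Figure D3:**
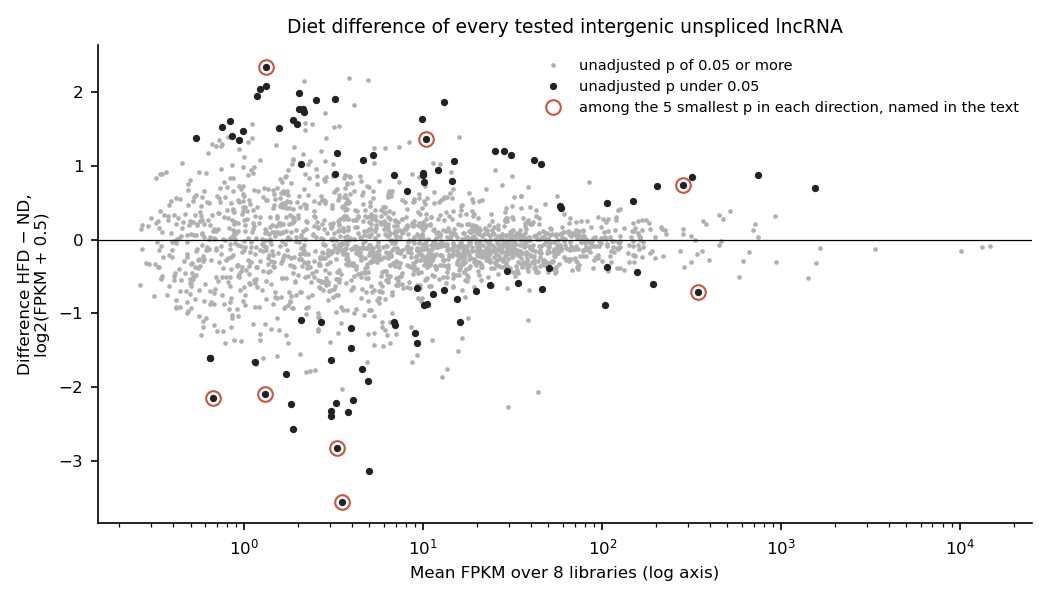
Difference between the diets (HFD minus ND, log2(FPKM + 0.5)) of each of the 2015 tested intergenic unspliced lncRNAs against its mean FPKM over 8 libraries (log axis). Black points are the 94 with an unadjusted p under 0.05, rings mark the 8 with the smallest p that are named in the text, and the cloud narrows from left to right.

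Among members with higher values on the high fat diet, the smallest p belonged to NONRATT018208.2 (1078 bases, chromosome 3, 54268534 to 54269611), which lies 1242 bases past the 3′ end of B3galt1. B3galt1 encodes a galactosyltransferase that builds sugar chains of glycoproteins and glycolipids. The lncRNA was at 204, 185 and 210.4 FPKM on chow and at 318, 393, 329, 278 and 356 on the high fat diet. All 5 HFD libraries were above all 3 ND libraries. The means were 199.6 ± 13.3 (SD, n = 3) and 335 ± 43.2 FPKM (SD, n = 5), and the log2 difference of 0.74 ± 0.14 (SE) did not pass (limma, adjusted p = 0.324). It was 0.77 in the deep and 0.79 in the shallow set. B3galt1 was at 14.0, 13.1 and 13.2 FPKM on chow and at 22.3, 26.1, 19.9, 21.3 and 24.8 on the high fat diet, also without overlap, with a log2 fold change of 0.75 ± 0.13 (SE; edgeR, adjusted p = 0.118).

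A further 2 of the 5 smallest p in this direction rest on few fragments. NONRATT000622.2 (332 bases, chromosome 1, 94864881 to 94865212) was at 7.30, 3.53 and 4.26 FPKM on chow and 8.94, 14.9, 14.8, 13.3 and 15.5 on the high fat diet. That is 1 to 8 fragments per library, and the diets did not overlap (log2 difference 1.37 ± 0.33, SE; limma, adjusted p = 0.532). NONRATT009920.2 (473 bases, chromosome 14, 47199053 to 47199525) was listed at 0 in all 3 ND libraries and at 1.78, 3.66, 1.89, 1.70 and 1.59 FPKM in the HFD libraries, 1 to 4 fragments each (limma, adjusted p = 0.354). No fold is given for it, since its chow group is at 0.

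Among members with lower values on the high fat diet, NONRATT018370.2 (646 bases, chromosome 3, 80969823 to 80970468) had the smallest p. It was at 4.38, 12.4 and 9.62 FPKM on chow and at 0.545, 1.12, 0, 0 and 0 on the high fat diet, from 8 to 15 fragments in ND and 0 to 2 in HFD libraries. Every ND library was above every HFD library, and the 3 shallow HFD libraries were listed at 0. The log2 difference was -3.55 ± 0.60 (SE; limma, adjusted p = 0.269), with -2.44 in the deep set. With 0.1 or 1 FPKM added in place of 0.5 the overall value was -5.09 or -2.85, so its size rests on that constant. No difference is given for the shallow set, where all 3 HFD libraries are at 0. Its nearest gene, AC135645.2, lies 1376 bases away and was at 0.285, 1.35 and 1.46 FPKM on chow and at most 0.108 on the high fat diet, and it was too low for the gene test.

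NONRATT009363.2 (2413 bases, chromosome 14, 44457632 to 44460044) lies 393 bases from Smim14, which encodes a small integral membrane protein. It was at 489.6, 422 and 446 FPKM on chow and at 321, 312, 223, 237 and 301 on the high fat diet, from 922 fragments or more in each library. All 3 ND libraries were above all 5 HFD libraries. The means were 453 ± 34.5 (SD, n = 3) and 279 ± 45.7 FPKM (SD, n = 5), and the log2 difference of -0.71 ± 0.16 (SE) did not pass (limma, adjusted p = 0.435). Smim14 was at 176, 198 and 209.7 FPKM on chow and at 154, 175, 118, 120.2 and 137 on the high fat diet (log2 fold change -0.48 ± 0.15, SE; edgeR, adjusted p = 0.576).

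The remaining 3 were near the limit of detection. NONRATT001333.2 (390 bases, chromosome 1, 213545646 to 213546035) lies 10104 bases past the 3′ end of Cyp2e1, which encodes an ethanol-oxidising cytochrome P450. It was at 1.29, 2.55 and 1.51 FPKM on chow, 1 fragment in each library, and listed at 0 in all 5 HFD libraries (limma, adjusted p = 0.43). NONRATT027784.2 (854 bases, chromosome 8, 69861730 to 69862583) lies 53904 bases from Dis3l, an exosome ribonuclease gene, and was at 5.21, 1.55 and 2.18 FPKM on chow and 0.371, 0.379, 0, 0 and 0.679 on the high fat diet (adjusted p = 0.641 by limma). NONRATT019671.2 (409 bases, chromosome 3, 120183192 to 120183600) lies 656 bases past the 3′ end of Mrps5, a gene of the mitochondrial ribosome. It was at 5.85, 11.7 and 4.11 FPKM on chow and at 2.31, 2.39, 0, 0 and 0 on the high fat diet (adjusted p = 0.672 by limma). Within the deep set its log2 difference was -0.93. None is given for the shallow set, where all 3 HFD libraries are at 0.

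**Figure D4:**
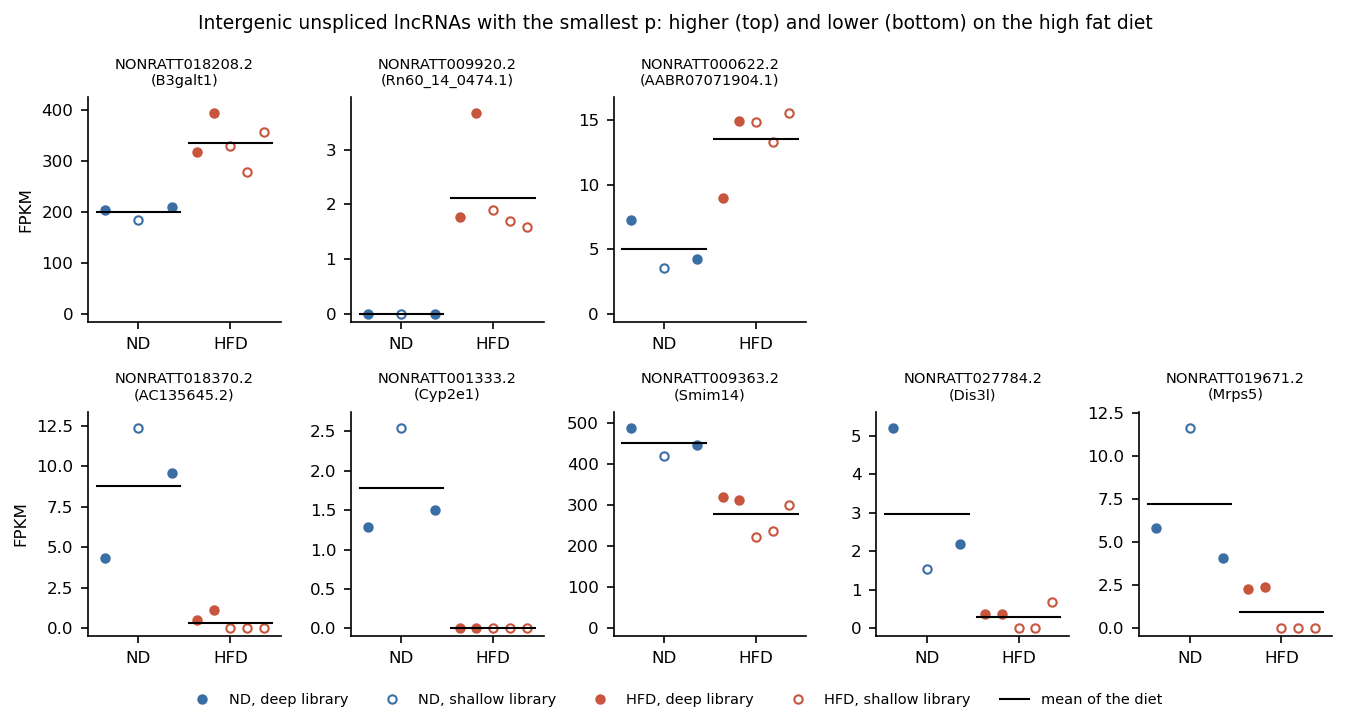
FPKM by diet for intergenic unspliced lncRNAs with the smallest p, 3 with higher (top) and 5 with lower (bottom) fitted values on the high fat diet, with the nearest gene in brackets, filled points for deep and open points for shallow libraries, and black lines for the diet means. The diets do not overlap in any of the 8, and the lncRNAs beside B3galt1 (185 to 393 FPKM) and Smim14 (223 to 489.6 FPKM) have the highest levels.

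The 5 members with the widest spread between libraries of a diet, among those with a mean of at least 1 FPKM, were short and rested on 0 to 14 fragments per library. NONRATT011464.2 (258 bases, chromosome 16, nearest gene annotated as U4 at 36020 bases) was at 25.3, 39.7 and 0 FPKM on chow and at 0, 18.5, 13.9, 12.5 and 52.3 on the high fat diet. NONRATT030004.2 (341 bases, chromosome 9, nearest gene annotated as U6 at 317201 bases) was at 24.0, 6.67 and 0 FPKM and at 0, 10.5, 0, 18.8 and 20.5 FPKM. Both were listed at 0 in ND-3 and HFD-1, which are deep libraries. NONRATT004298.2 (234 bases, beside Mfap3) was at 70.3, 62.3 and 58.0 FPKM on chow and at 62.3, 25.6, 18.8, 50.5 and 0 FPKM on the high fat diet. NONRATT024288.2 (317 bases, beside Srp54a, a gene of the signal recognition particle) ranged over 3.92 to 20.4 FPKM in ND and 0 to 19.9 FPKM in HFD libraries. NONRATT018765.2 (308 bases, on the 5′ side of the chromatin regulator gene Asxl1) was at 11.0, 0 and 0 FPKM on chow and 2.14, 0, 4.40, 0 and 7.34 on the high fat diet. Their SD about the diet means was 2.13 to 2.89 on the log2 scale, and their adjusted p by limma was 0.963 or more.

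Of the tested members, 20 lay within 10000 bases of a gene on lists of liver metabolism and of the circadian clock, and 9 of the 10 highest are given here. None of these 9 passed (limma, adjusted p of 0.963 or more). NONRATT021220.2 (1226 bases, chromosome 4, 30544835 to 30546060) lies 604 bases past the 3′ end of Pdk4, which encodes a kinase that shuts off pyruvate dehydrogenase in fasting. It was at 168, 110.2 and 326 FPKM on chow and at 159, 73.8, 698, 82.2 and 138 on the high fat diet. Pdk4 was at 24.5, 14.8 and 55.1 FPKM on chow and at 24.0, 8.67, 65.1, 12.5 and 19.3 on the high fat diet. HFD-3 was the highest library of both, ND-3 came next in both, and HFD-2 was the lowest in both.

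NONRATT003819.2 (584 bases, chromosome 1, 264156494 to 264157077) lies 3052 bases from Scd1, which encodes a desaturase that makes monounsaturated fatty acids. It was at 22.3, 96.4 and 35.1 FPKM on chow and at 12.0, 40.9, 0, 19.6 and 10.3 on the high fat diet. Scd1 was at 1111, 2092 and 1204 FPKM on chow and at 481, 236, 9.26, 532 and 1143 on the high fat diet. ND-2 was the highest and HFD-3 the lowest library of both, while HFD-2 and HFD-5 did not keep the same place. The lncRNA's log2 difference was -2.26 ± 1.21 (SE; limma, adjusted p = 0.963), with -0.32 in the deep and -4.35 in the shallow set. It was -1.23 without HFD-3.

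NONRATT009402.2 (651 bases, chromosome 14, 63190037 to 63190687) lies 3028 bases past the 3′ end of Ppargc1a, the gene of a coactivator of gluconeogenesis and mitochondrial biogenesis. It was at 41.1, 8.91 and 15.9 FPKM on chow and at 5.39, 6.62, 0, 22.0 and 24.4 on the high fat diet. Ppargc1a was at 3.60, 0.663 and 1.29 FPKM and at 1.13, 1.21, 1.46, 3.34 and 2.66 FPKM. The 3 highest libraries were ND-1, HFD-4 and HFD-5 in both, and the lowest differed.

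The members beside Insr and Acadl varied less. NONRATT007674.2 (1546 bases, 793 bases past the 3′ end of the insulin receptor gene Insr) ranged over 154 to 169 FPKM in ND and 115 to 181 FPKM in HFD libraries. NONRATT029473.2 (711 bases, 15 bases from Acadl, the gene of a dehydrogenase of long-chain acyl-CoA) ranged over 15.8 to 24.3 FPKM and 14.4 to 22.3 FPKM. Their log2 differences were -0.20 ± 0.16 and -0.16 ± 0.25 (SE), and the diets overlapped in each.

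Beside clock genes, NONRATT005865.2 (1372 bases, 2851 bases from Hlf, a clock output factor) ranged over 58.6 to 97.9 FPKM in ND and 32.7 to 83.5 FPKM in HFD libraries. NONRATT027863.2 (1608 bases, 7656 bases past the 3′ end of Rora, a nuclear receptor of the clock) was at 52.2, 66.8 and 101 FPKM on chow and at 56.1, 84.3, 50.7, 56.3 and 49.7 on the high fat diet. ND-3 and HFD-2 were the highest libraries of this lncRNA and of Rora (19.7 and 17.2 FPKM). NONRATT001754.2 (771 bases, 8370 bases on the 5′ side of the aminotransferase gene Got1) ranged over 12.0 to 22.6 FPKM and 6.46 to 17.1 FPKM. ND-1 was the highest library for it and for Got1 (194 FPKM). NONRATT010540.2 (1071 bases, 61 bases from Fdft1, the squalene synthase gene) was at 8.37, 5.25 and 6.88 FPKM on chow and at 9.20, 5.97, 6.70, 9.89 and 11.8 on the high fat diet. Fdft1 was at 39.7, 73.9 and 66.9 FPKM and at 32.5, 21.8, 43.2, 21.8 and 19.4 FPKM, so the lncRNA was lowest in the library where Fdft1 was highest, ND-2, and highest where it was lowest, HFD-5.

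**Figure D5:**
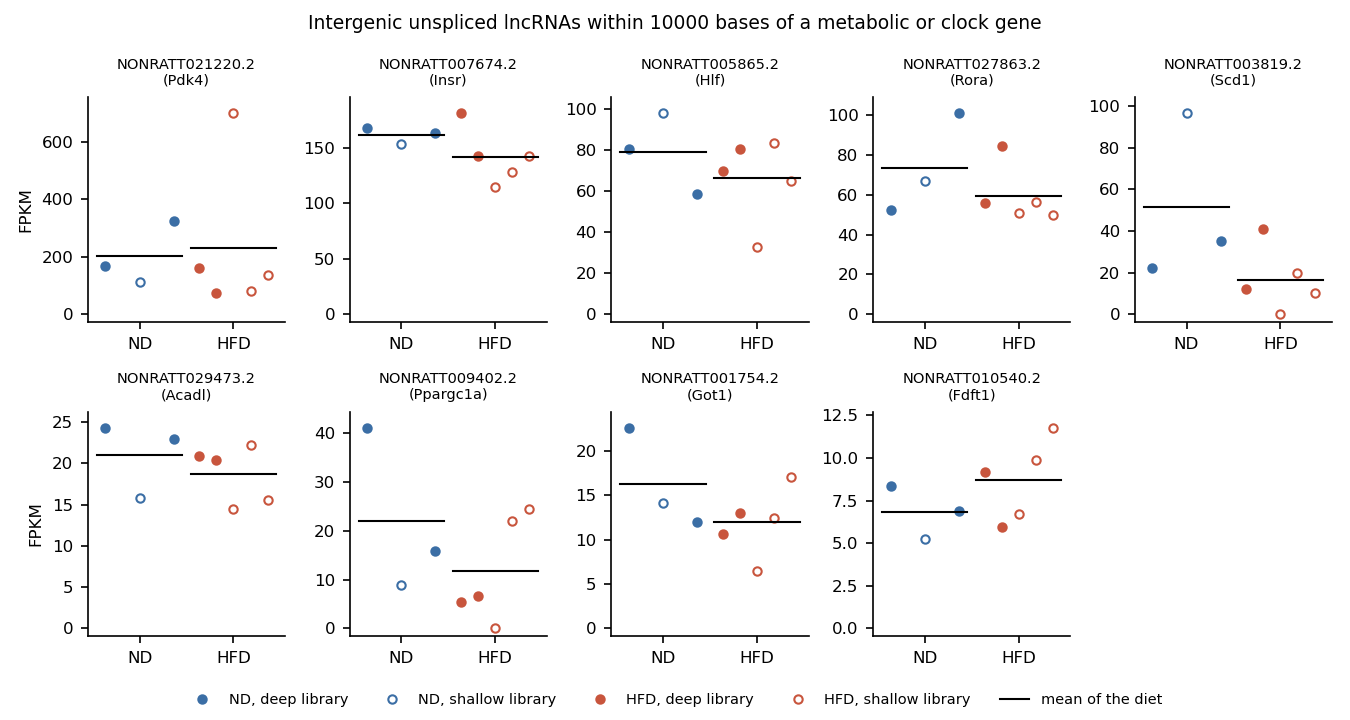
FPKM by diet of 9 intergenic unspliced lncRNAs of high mean within 10000 bases of a listed metabolic or clock gene (in brackets), with filled points for deep and open points for shallow libraries and black lines for the diet means. The diets overlap in all 9, and HFD-3 holds the highest point beside Pdk4 (698 FPKM) and a 0 beside Scd1 and Ppargc1a.

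Transcripts just inside and just outside the limit on locus length are given for comparison. Just inside it, NONRATT021978.2 has 45 bases more in its locus than in the transcript and was at 39.5 to 60.0 FPKM, and NONRATT030401.2, with 49 extra bases on a scaffold beside a gene annotated as 5_8S_rRNA, was listed at 0 in all libraries. Just outside, NONRATT010945.2 (50 extra bases) was at 27.1 to 38.4 FPKM and NONRATT012342.2 (52 extra bases) at 0 to 1.67 FPKM.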

How the data were processed

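The build was Rnor_6.0, and TopHat2 2.0.9, Cufflinks 2.2.1 and Cuffdiff are listed, per the submitters' processing notes. The sources used here do not state which of these made which value, which annotation was taken, or whether strand was used. Libraries were made with a TruSeq RNA kit from 1 µg of total RNA, per the labels. For genes, counts (whole numbers) and FPKM were deposited. For each lncRNA, FPKM and a second value, a signal, were deposited. The signal is a number of fragments times 1 constant per library: 83.7% to 84.6% of values up to 20 fragments were whole within 0.02. A lncRNA FPKM is scaled to nearly the lncRNA table's own total (89.9% to 100.6% of its signal) and to an effective length, so it is not on the scale of gene FPKM. Starts of lncRNA loci count from 0 in the file and are given from 1. All transcripts of 1 of the 24146 lncRNA loci carry the span of that locus, so "unspliced" rests on it. Scaffold names were matched between the tables.

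The lncRNAs were tested with limma 3.58.1 in R 4.3.3 (variance trend, 2-sided) on log2(FPKM + 0.5), which understates the change of low transcripts, over all 19799 transcripts with at least 0.5 FPKM in at least 3 libraries. Nearest genes were tested on counts by the quasi-likelihood test of edgeR 4.0.16 after TMM scaling and filterByExpr, which kept 14148 of 32545 genes (1 passing). A Benjamini-Hochberg adjusted p under 0.05 over all features tested counted as passing. P-values measure the spread between the libraries of a diet; the labels do not tie a library to a rat beyond its number, and no pair of libraries held the same values. Alternatives were other pseudocounts, filters and variance models, library weights, quantile normalization, the replicate number or the depth set in the model, edgeR on rounded fragments, and leaving out each library; reading starts as written and leaving scaffold names unmatched were chosen after seeing the data.

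Members are named when they pass, have 1 of the 5 smallest p in a direction, 1 of the 10 highest means or 1 of the 5 largest SDs about the diet means (mean of at least 1 FPKM), lie within 10000 bases of a listed gene (the 10 highest), or are nearest to the limit of 50 bases on locus length. The members and lists were chosen with earlier results of these data known. Some members that the rule names are not reported here. Sequences of the lncRNAs were not used here.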

Additional observations from a re-analysis of the deposited data

Results flagged for a closer look

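A value far from the other 4 was looked for among the 5 HFD libraries in 33 groups of values, 31 named lncRNAs and 2 summary measures of each library. Chance alone picks out about 1 in 20 such groups if the values are normally distributed. That was not checked for these values, so the rate expected here is not known. The search picked out 3. NONRATT021220.2, beside Pdk4, was at 698 FPKM in HFD-3, with the other 4 HFD libraries between 73.8 and 159 FPKM. NONRATT027863.2, beside Rora, was at 84.3 FPKM in HFD-2, with the others between 49.7 and 56.3 FPKM. NONRATT009920.2 was at 3.66 FPKM in HFD-2, which is 4 fragments, with the others between 1.59 and 1.89 FPKM.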

How the results depend on the processing

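The count of 0 members passing held under every alternative but 1: without limma's variance trend 2 members passed, NONRATT009920.2 (adjusted p = 0.0477) and NONRATT001333.2 (adjusted p = 0.0289), both on 1 to 4 fragments in the diet where they were seen. Over all lncRNAs the count of 2 became 9 without the trend, and 0 to 3 when 1 library was left out, while for the members it stayed at 0. At an unadjusted p under 0.05, leaving out a library gave 66 to 103 members. Of the 4187 members, 1997 lie at least 5000 bases from every gene.

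Replicate numbers gave no sign of pairing the libraries: deviations from the diet means correlated at 0.024, -0.105 and 0.016 for numbers 1, 2 and 3. The libraries of numbers 2 and 3 come from different depth sets, so these values cannot decide whether they are paired. With the replicate number as a block 0 lncRNAs passed in all, 0 of them members. No chow library shares its number with HFD-4 or HFD-5, so this fit takes the diet difference from numbers 1, 2 and 3 alone. Its count is therefore not that of a comparison of all 8 libraries.

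Among the named members 499 of 526 alternative differences kept their sign and their side of the threshold. A member that failed the filter of an alternative has no value there. The other filters and the fit without the variance trend leave a log2 difference as it is, so no sign could change under them. Members far above the threshold also had little room to change side, so the count is not a measure of robustness. A change of sign occurred in 9 members, none with an unadjusted p under 0.05, and its cause was not tested. With the block, which leaves HFD-4 and HFD-5 out of the diet difference, the log2 difference of NONRATT008185.2 was 0.055. It was -0.64 for NONRATT011464.2 and 0.15 for NONRATT021220.2. With the depth set in the model it was 0.090 for NONRATT008185.2 and -0.51 for NONRATT011464.2. Library weights gave -0.020 for NONRATT018765.2, and edgeR on fragments 0.20 for NONRATT021220.2. Leaving out 1 library gave ranges of -0.43 to 0.093 for NONRATT008185.2, -0.22 to 0.027 for NONRATT022566.2, -0.57 to 0.031 for NONRATT012014.2 and -0.65 to 1.15 for NONRATT006699.2. The ranges were -1.70 to 1.46 for NONRATT011464.2, -1.70 to 1.10 for NONRATT030004.2, -0.33 to 1.93 for NONRATT018765.2, -0.76 to 0.20 for NONRATT021220.2 and -0.18 to 0.024 for NONRATT021978.2. With 3 and 5 libraries and a median of 1 fragment per library below 2 FPKM, small differences of low members may have been missed. The size of difference that could be detected in them was not tested.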
